A study of Saccharomyces cerevisiae with 7 samples.

Results

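The proteasome genes of budding yeast, Saccharomyces cerevisiae, comprised 35 of the 5449 genes measured here. They were taken by gene symbol and comprised 14 genes of the 20S core (PRE, PUP and SCL1), 19 genes of the 19S cap (RPN, RPT and SEM1), the maturation factor gene UMP1 and the regulator gene RPN4. Each gene had 1 probe set, so no choice among probe sets was needed. RNA was hybridised to 7 one-colour Affymetrix arrays: 1 of wild type cells at 25C, and 2 each of wild type, scc2-4 and sth1-3 cells at 37C. Per the labels, cells grew in rich medium (YP) with 2% glucose from an OD600 of 0.25 and were shifted to 37C for 2 h. Scc2 loads the cohesin ring onto chromosomes, Sth1 is the motor subunit of RSC, a complex that moves and evicts nucleosomes, and both alleles are temperature-sensitive. The question posed by the series is how these factors bear on transcription.

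The wild type strain was YK700 (MATa, psi+ and GAL), with the alleles ura3-52, his3-11,15, can1-100, trp1-1, ade2-1 and leu2-3, 112. The scc2-4 strain was Y4251 (MATa, scc2-4), which also carried Scc1-Pk9::TRP1 and Sth1-9myc::URA3. The sth1-3 strain was Y4343 (MATα, sth1-3ts), which also carried Scc2-Pk9::TRP1. Each mutant is thus 1 strain that carries epitope tags the wild type lacks, and mating type differs between sth1-3 and the others. The remaining markers of the mutants are not given in the sources used here. These differences cannot be told apart from the scc2-4 or sth1-3 allele.

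The proteasome degrades proteins tagged with ubiquitin. Its 20S core is a barrel of stacked rings: the outer alpha rings form a gate, and the inner beta rings hold the peptidase sites of Pre3, Pup1 and Pre2. The 19S cap binds ubiquitin chains, removes them and threads the unfolded protein into the barrel; its base holds the Rpt ATPases and its lid the deubiquitinase Rpn11. Ump1 accompanies the maturing core and is its first substrate. In budding yeast most of these genes share a promoter element bound by Rpn4, a short-lived transcription factor that the proteasome itself degrades. Misfolded proteins raised by heat are among its substrates.

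Values are the deposited log2 signals, on which a difference of 1 is a doubling. The background of an array was the 95th percentile of its 1746 probe sets for the fission yeast Schizosaccharomyces pombe, whose RNA was not hybridised, and lay between 9.94 and 10.07. Between 439 and 705 genes, or 8.06% to 12.9%, lay above it on an array. The genes measured as markers of mating type (7 a-specific and 5 alpha-specific) and the mutated genes SCC2 and STH1 were above background on no array, so they do not check the strain labels. The hybridisation controls, bacterial RNAs added to every array, split the arrays into sets. Their mean over 9 probe sets was 12.57 to 12.79 on wild type 25C, scc2-4 replicate 1 and sth1-3 replicate 1 (the 3-array set) and 11.67 to 11.84 on both wild type 37C arrays, scc2-4 replicate 2 and sth1-3 replicate 2 (the 4-array set). The signal of the 3′ over the 5′ probe set of 25S ribosomal RNA split the same way, at 3.03 to 4.16 log2 units against 0.30 to 0.69. The same measure for ACT1 messenger RNA overlapped between the sets. It was -0.31, 0.32 and -0.17 on the 3-array set, in the order above. On the 4-array set it was 1.60 and 0.21 in wild type at 37C, 1.20 in scc2-4 and 0.62 in sth1-3. The labels do not say what the sets are.

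Most proteasome genes, like most genes measured, were below background on these arrays. Of the 35, 27 were above background on no array, PRE1, PRE7, PUP3, RPT1 and RPT6 were above it on 1, RPN8 on 2, RPN7 on 6 and UMP1 on all 7. Per array, 1 to 5 of the 35 were above background, a share of 2.86% to 14.3%, beside 8.06% to 12.9% of all genes. The median rank of the 35 among all genes lay between percentiles 47.8 (wild type 37C replicate 1) and 75.6 (scc2-4 replicate 1). The median S. pombe signal was 8.37 to 8.54 on the 4-array set, where the median of the 35 was 8.49 to 8.66. Per array, 20 to 25 of the 35 lay above the S. pombe median there, and 28 to 32 on the 3-array set. A difference near 0 between arrays of the 4-array set thus does not show equal RNA. A probe set below the background has only a bound, so its differences below are differences of signal and are given no fold.

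Most proteasome genes had higher signals on the 3-array set. The median of the 35 was 9.45 on wild type 25C, 9.39 on scc2-4 replicate 1 and 9.16 on sth1-3 replicate 1. On the 4-array set it was 8.49 and 8.66 in wild type at 37C, 8.59 in scc2-4 replicate 2 and 8.55 in sth1-3 replicate 2. Hence the median of every array of the 3-array set, at 25C or 37C and wild type or mutant, lay above that of every array of the 4-array set. The median of all 5449 genes moved less, from 8.63 to 8.79 on the 3-array set and from 8.56 to 8.65 on the 4-array set. Of the 35 genes, 14 were higher on every array of the 3-array set than on any of the 4-array set, against 21.6% of all genes, and 1 (UMP1) was lower throughout, against 14.0%. The mean of the 3-array set minus that of the 4-array set had a median of 0.54 log2 units over the 35, from -0.44 (RPN2) to 1.33 (RPT5), beside 0.12 over all genes. It was above 0 for 30 of the 35, against 3175 of all 5449 genes, and below 0 for 5: RPN2, UMP1, RPN4, RPN12 and RPT3.

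**Figure D1:**
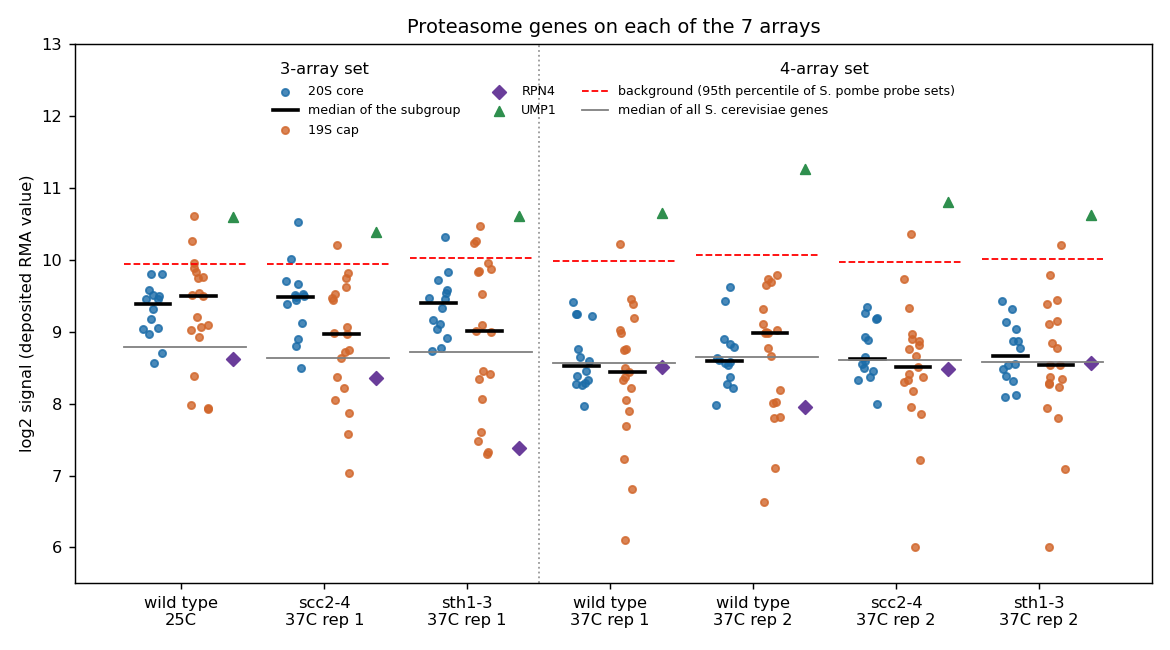
Log2 signal of each proteasome gene (vertical axis) on each of the 7 arrays (horizontal axis), with 20S core genes in blue, 19S cap genes in orange, UMP1 as triangles and RPN4 as diamonds; black bars are subgroup medians, dashed lines the background of the array and grey lines the median of all genes. The 20S core medians are 9.38 to 9.49 on the 3 arrays at the left and 8.52 to 8.66 on the 4 at the right, and UMP1 is above the background on every array.

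Without overlap between the sets, 9 of the 14 core genes were higher on the 3-array set (64.3%, against 21.6% of all genes), with a median difference of 0.59 log2 units. In the cap 5 of 19 were (26.3%), a share near that of all genes, although the median difference was 0.45. The difference between core and cap was not tested. By ring, 5 of 7 alpha genes and 4 of 7 beta genes were higher without overlap, and in the cap 3 of 10 base genes and 2 of 9 lid genes. The replicates of each mutant lie in different sets. Replicate 1 of scc2-4 was above replicate 2 for 14 of 14 core genes, by a median of 0.80 log2 units, against 52.8% of all genes. In sth1-3 it was above for 14 of 14 as well, by a median of 0.64, against 58.9% of all genes. For the cap it was 12 of 19 in each mutant, nearer to those shares of all genes, with medians of 0.39 in scc2-4 and 0.47 in sth1-3. Over all genes the medians were 0.04 in scc2-4 and 0.16 in sth1-3. The 2 wild type 37C arrays lie in the same set, and the median SD of the 35 genes between replicates was 0.21 there, 0.33 in scc2-4 and 0.43 in sth1-3. Over all genes the median SD was 0.23, 0.28 and 0.34 in the same order. Yet wild type 37C replicate 1 correlated less with its own replicate than with the mutant arrays of its set. Over all genes the correlation was 0.915 with its replicate, 0.980 with scc2-4 and 0.942 with sth1-3. Over the 35 it was 0.880, 0.962 and 0.916. Wild type 37C replicate 2 was above replicate 1 for 23 of the 35, against 64.7% of all genes.

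In the alpha ring, PRE9, the only alpha subunit whose gene is not essential in yeast, measured 9.45 in wild type at 25C, 8.65 and 8.58 in wild type at 37C, 9.49 and 9.17 in scc2-4, and 9.46 and 9.31 in sth1-3. All 4 mutant arrays were above both wild type 37C arrays, which lie in the 4-array set. Wild type at 25C was among the mutants. PRE9 was also higher on every array of the 3-array set than on any of the 4-array set. PRE5 was 9.18 in wild type at 25C, 8.33 and 8.21 in wild type at 37C, 9.51 and 8.45 in scc2-4, and 9.72 and 8.32 in sth1-3. It was high on the 3 arrays of the 3-array set alone, and so were PRE6 and PUP2. PRE8 was higher on that set without overlap too, but narrowly, at 8.70 in wild type at 25C against 8.64 in scc2-4 replicate 2. Its scc2-4 values, 8.90 and 8.64, were above both wild type 37C values, 8.28 and 8.37. The other alpha genes, SCL1 and PRE10, overlapped between the sets, with ranges over the 7 arrays of 0.86 and 0.96 log2 units.

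Of the 3 genes for the catalytic beta subunits, PUP1, whose product cuts after basic residues, measured 8.56 in wild type at 25C, 8.28 and 7.99 in wild type at 37C, 9.52 and 8.59 in scc2-4, and 9.11 and 8.88 in sth1-3. Its 4 mutant values lay above the 3 wild type values. PRE3, whose product cuts after acidic residues, was 9.80 in wild type at 25C, 8.26 and 8.57 in wild type at 37C, 9.66 and 8.37 in scc2-4, and 9.04 and 8.55 in sth1-3. PRE2, which encodes the chymotrypsin-like site, was 9.50, then 8.39 and 8.63, then 9.12 and 8.33, then 9.58 and 8.39 in the same order. Both followed the array sets without overlap. Among the non-catalytic beta genes, PUP3 measured 9.04 in wild type at 25C, 9.22 and 8.90 in wild type at 37C, 10.52 and 9.25 in scc2-4, and 9.47 and 9.13 in sth1-3; the scc2-4 replicate 1 array alone was above background. PRE4 had the narrowest split of the core, 0.15 log2 units between the set means, and its wild type 25C value of 9.06 was below both wild type 37C values, 9.24 and 9.63.

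In the base of the cap, the ATPase gene RPT5 had the widest split, with 9.51 in wild type at 25C, 7.69 and 7.81 in wild type at 37C, 8.97 and 7.86 in scc2-4, and 8.99 and 7.94 in sth1-3. Its 3 high arrays were those of the 3-array set. RPT2, an ATPase gene with a part in opening the alpha gate, was 9.20 in wild type at 25C, 8.22 and 8.02 in wild type at 37C, 8.99 and 8.51 in scc2-4, and 8.34 and 8.35 in sth1-3, with sth1-3 between wild type at 37C and scc2-4. RPT3 was 9.02 in wild type at 25C, 9.02 and 9.69 in wild type at 37C, 9.82 and 8.97 in scc2-4, and 8.41 and 9.15 in sth1-3, and all the 37C groups overlapped. RPN2, the scaffold subunit that docks the ubiquitin receptor Rpn13, went the other way: it measured 8.38 in wild type at 25C, 8.44 and 9.03 in wild type at 37C, 8.06 and 8.37 in scc2-4, and 7.48 and 7.80 in sth1-3. Both sth1-3 arrays were below the other 5, one in each array set. All these signals were below the background.

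In the lid, RPN7, a structural subunit, was above background on all arrays but wild type 37C replicate 2: it measured 10.61 in wild type at 25C, 10.22 and 9.79 in wild type at 37C, 10.21 and 10.36 in scc2-4, and 10.23 and 10.21 in sth1-3. The 37C groups overlapped, and the single 25C array was above all 6 of them. RPN8, the partner of the deubiquitinase Rpn11, was above background only on wild type 25C, at 10.26, and sth1-3 replicate 1, at 10.47. It was 8.97 and 8.77 in wild type at 37C, 9.47 and 8.87 in scc2-4 and 8.84 in sth1-3 replicate 2, so the 2 sth1-3 arrays spanned nearly its whole range of 1.70 log2 units. RPN11 itself measured 9.54 in wild type at 25C, 8.74 and 8.01 in wild type at 37C, 9.75 and 8.90 in scc2-4, and 9.01 and 9.39 in sth1-3. Its 4 mutant values were above both wild type 37C values.

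UMP1 measured 10.59 in wild type at 25C, 10.65 and 11.26 in wild type at 37C, 10.39 and 10.80 in scc2-4, and 10.61 and 10.63 in sth1-3. Its highest array was wild type 37C replicate 2, and both sth1-3 arrays were just below both wild type 37C arrays. RPN4 was below background throughout, with 8.62 in wild type at 25C, 8.51 and 7.96 in wild type at 37C, 8.35 and 8.48 in scc2-4, and 7.38 and 8.56 in sth1-3. Its lowest array was sth1-3 replicate 1, whose core genes were high, and the 3 groups at 37C overlapped.

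**Figure D2:**
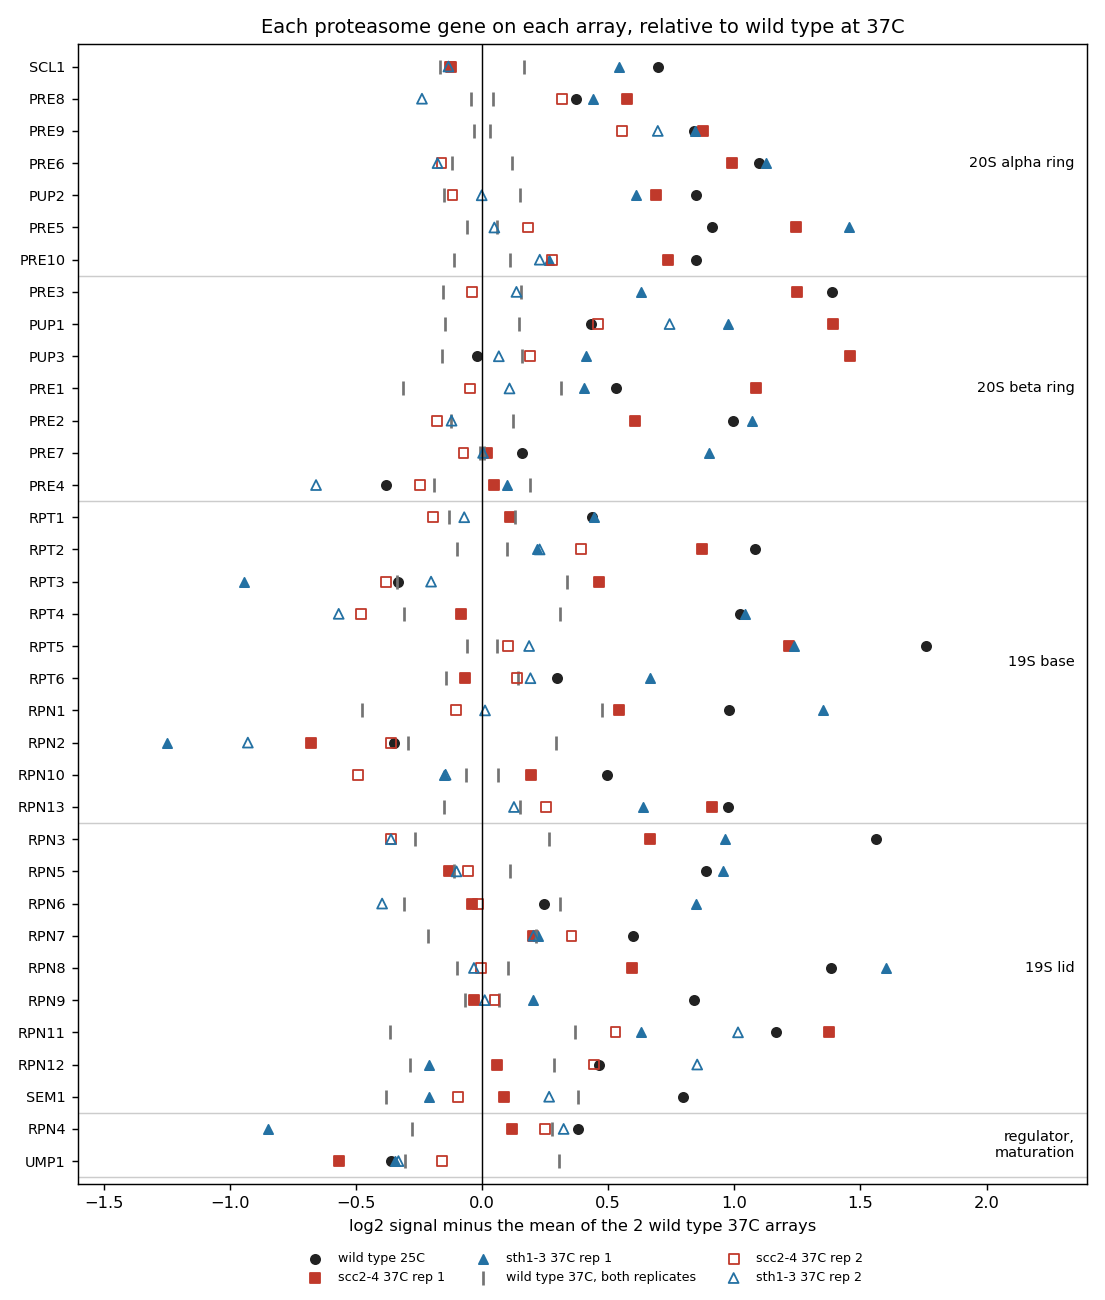
Log2 signal of each of the 35 proteasome genes on each array minus the mean of the 2 wild type 37C arrays (horizontal axis), 1 gene per row, grouped by role; filled symbols are the 3-array set, open symbols and grey ticks the 4-array set. In most rows of the 20S core the filled symbols lie to the right, as far as 1.46 (PUP3 in scc2-4), while RPN2 lies to the left in sth1-3 in both sets.

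**Figure D3:**
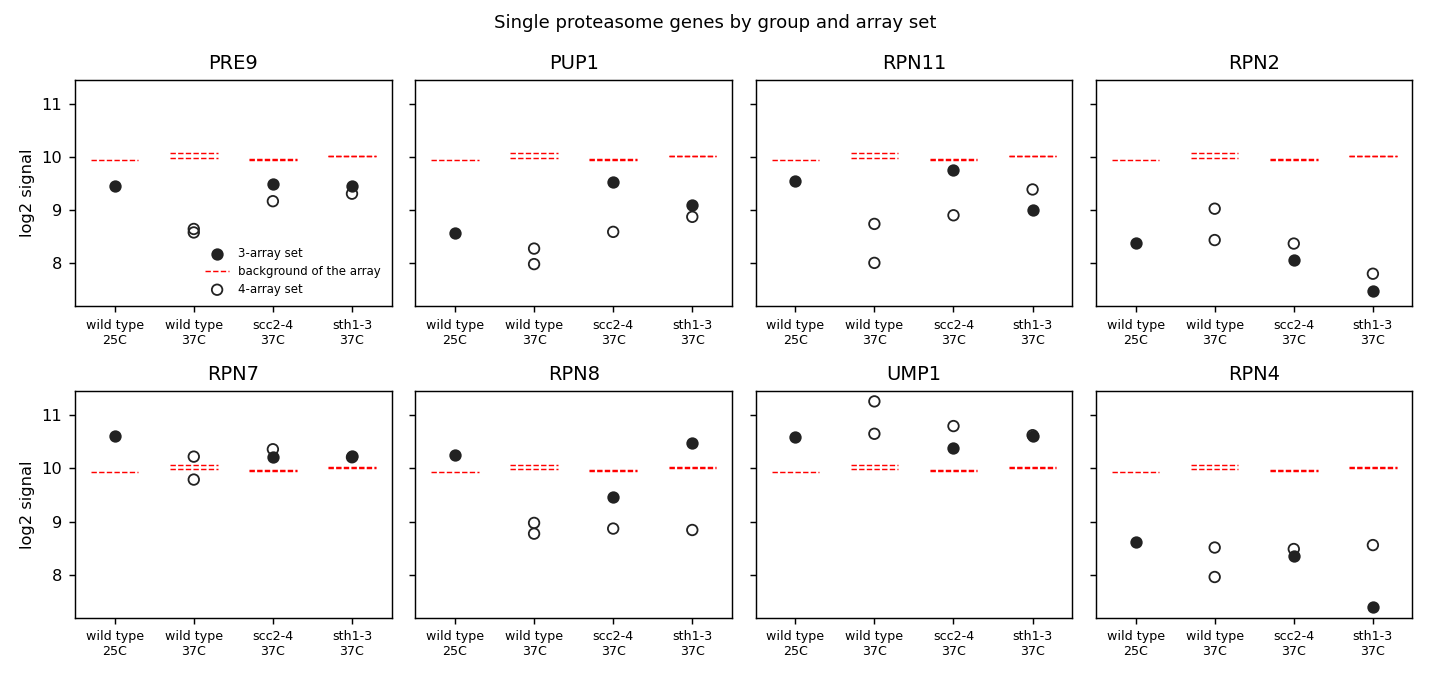
Log2 signal (vertical axis) of 8 proteasome genes by group (horizontal axis), filled for the 3-array set and open for the 4-array set, with the background of each array dashed. PRE9 is higher in both mutants than on the wild type 37C arrays, which are both open, and its filled wild type 25C symbol lies near the filled mutant symbols. RPN8 is high on 2 of the 3 filled arrays. RPN7, UMP1 and PRE9 each vary by less than 1 log2 unit, with ranges of 0.81, 0.87 and 0.91.

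Wild type and scc2-4 were compared at 37C to ask what is changed when Scc2 is impaired. The signals of most core genes were higher on average in scc2-4, by a median of 0.48 log2 units, but no proteasome gene passed the test. On the scc2-4 array that shares a set with wild type, 15 of the 35 were higher than the wild type mean, against 44.8% of all genes, with a median of -0.04. Of the core, 6 of 14 were higher there, with a median of -0.044. The core median thus rests on scc2-4 replicate 1, where 13 of 14 were higher with a median of 0.81. Member signals on the 4-array set lay near the S. pombe median, so medians near 0 within it do not show equal RNA. In limma's fit over all 7 arrays, 0 of 5449 genes (0%) passed an adjusted p of 0.05, and the lowest adjusted p among the 35 was 0.998. At an unadjusted p under 0.05 limma found 1 of the 35 (PUP1), against 1.25% of all genes. The difference was above 0 for 24 of the 35, against 49.5% of all genes, with a median of 0.22 log2 units beside -0.005. By role, it was above 0 for 11 of 14 core genes and for 12 of 19 cap genes, whose median was 0.04. Both scc2-4 values were above both wild type values for 10 of the 35 (15.0% of all genes) and below for 1, RPN2 (14.1%).

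The smallest p-values were those of PUP1, PRE9 and RPN11. PUP1 was higher in scc2-4 by 0.93 log2 units, with means of 9.06 ± 0.66 and 8.13 ± 0.21 (SD, n = 2 each) and an adjusted p of 0.998 in limma. PRE9 was higher by 0.72, with means of 9.33 ± 0.23 and 8.61 ± 0.05, and RPN11 by 0.95, with means of 9.33 ± 0.60 and 8.38 ± 0.52 (SD, n = 2 each), with the same adjusted p in limma. Of the genes above background, RPN7 was 1.21-fold higher and UMP1 1.29-fold lower in scc2-4, both with overlapping groups and an adjusted p of 0.998 in limma.

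With the array set as a term in the fit, 17 of the 35 were above 0, against 43.4% of all genes, and the median was -0.02. The core then had 8 of 14 above 0 and a median of 0.13, and the cap 8 of 19 and -0.03. That fit called 7 genes in all (0.128%), none of them among the 35. The scc2-4 replicate 1 array, in the other set, was above the wild type 37C mean for 27 of the 35, against 50.9% of all genes, with a median of 0.54. PRE9, PUP1 and RPN11 differed by 0.60, 0.64 and 0.84 log2 units with the set term (limma's adjusted p 1.00 each).

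Wild type and sth1-3 were compared at 37C to ask what is changed when the RSC ATPase is impaired. Here too the signals of most proteasome genes were higher in the mutant, and none passed the test. The comparison uses the same 2 wild type arrays as that with scc2-4, so the values of both are not independent. In limma's fit 0 genes (0%) passed, and the lowest adjusted p among the 35 was 0.824. At an unadjusted p under 0.05 limma found 2 of the 35, PRE9 higher and RPN2 lower, against 3.78% of all genes. The difference was above 0 for 29 of the 35, against 53.0%, with a median of 0.26 log2 units beside 0.03. It was above 0 for 13 of 14 core genes (median 0.34), 7 of 10 base genes (median 0.23) and 9 of 9 lid genes (median 0.30). Without overlap between groups, 7 of the 35 were higher (18.0% of all genes) and 3 lower (18.8%).

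RPN2 had the smallest p, lower in sth1-3 by 1.09 log2 units, with means of 7.64 ± 0.23 and 8.73 ± 0.42 (SD, n = 2 each) and an adjusted p of 0.824 in limma. PRE9 was higher by 0.77, with means of 9.38 ± 0.10 and 8.61 ± 0.05, and PUP1 by 0.86, with means of 8.99 ± 0.16 and 8.13 ± 0.21 (SD, n = 2 each), with the same adjusted p in limma. UMP1 was 1.26-fold lower, with no overlap between groups but an adjusted p of 0.843 in limma. RPN7 was 1.16-fold higher, with overlapping groups and an adjusted p of 0.897 in limma. RPN4 differed by -0.26 log2 units with all arrays, and by 0.32 with the 4-array set alone.

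With the array set as a term, 19 of the 35 were above 0, against 46.5% of all genes, and the median was 0.06. The core then had 6 of 14 above 0 and a median of -0.03, and the cap 12 of 19 and 0.10. In that fit 10 genes were called (0.184%), none of them among the 35. Replicate 1 of sth1-3 was above the wild type 37C mean for 28 of the 35, against 56.0% of all genes, with a median of 0.61. Replicate 2 was above it for 19, with a median of 0.01, against 43.2% of all genes. Like wild type at 37C, replicate 2 had member signals near the S. pombe median, so this median does not show equal RNA. By role, replicate 2 was above for 8 of 14 core genes (median 0.026), 5 of 10 base genes (median -0.03) and 5 of 9 lid genes (median 0.010), where replicate 1 gave medians of 0.62, 0.54 and 0.63. RPN2 was lower in both replicates and by 0.93 log2 units with the set term, with an adjusted p of 1.00 in limma.

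**Figure D4:**
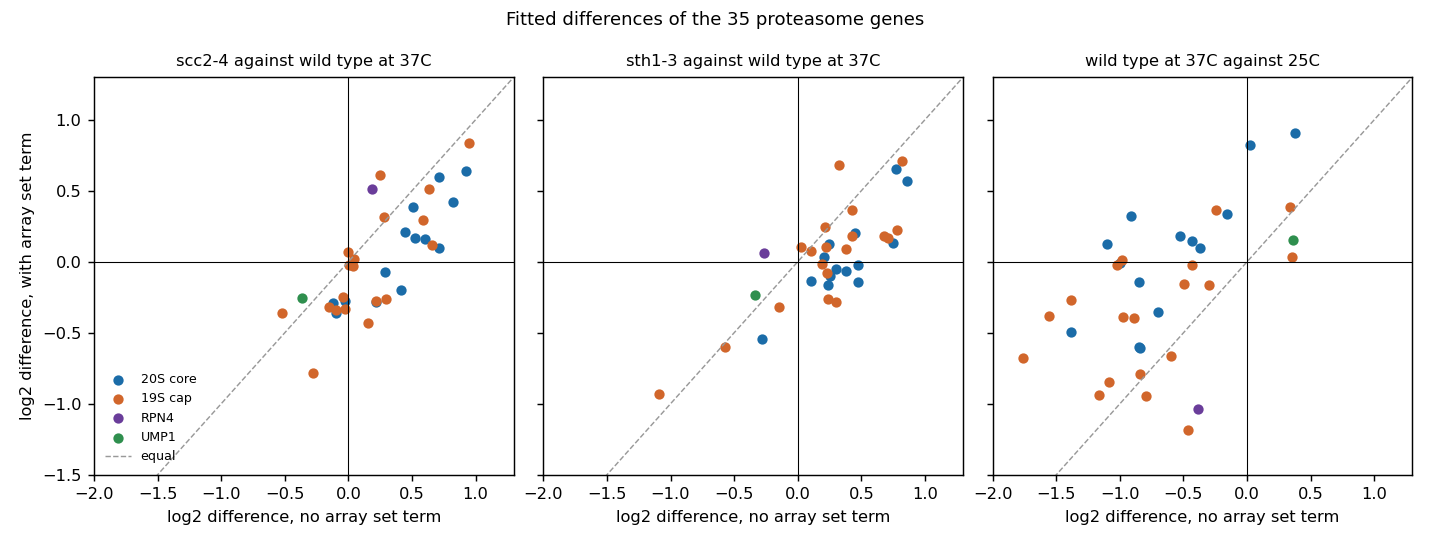
Log2 difference of each of the 35 proteasome genes without (horizontal axis) and with (vertical axis) the array set in the fit, for 3 of the comparisons; the dashed line marks equal values. With the set term the medians lie at -0.02 for scc2-4, 0.06 for sth1-3 and -0.16 for wild type at 37C against 25C, beside 0.22, 0.26 and -0.80 without it.

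The mutants, which each have 1 array in either set, were compared with each other to ask whether their proteasome genes differ. The median difference of sth1-3 minus scc2-4 was 0.03 log2 units over the 35, beside 0.02 over all genes, and 21 were above 0, against 52.8%. No gene was called with or without the set term (0% each), and at an unadjusted p under 0.05 limma found 0 of the 35, against 0.385% of all genes. Within the 3-array set 18 of the 35 were higher in sth1-3, against 55.5% of all genes, and within the 4-array set 17, against 45.5%. Leaving out 1 mutant array moved the median of the 35 between -0.34 and 0.29. Without overlap, RPT6 was higher (8.44% of all genes) and 3 were lower (9.62%). The smallest p-values were those of RPT3, PUP3 and RPN2, lower in sth1-3 by 0.61, 0.59 and 0.57 log2 units, each with an adjusted p of 1.00 in limma.

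Wild type at 37C and at 25C were compared to ask what the temperature shift does in cells with both factors. Signals of 30 of the 35 proteasome genes were lower at 37C, with a median of -0.80 log2 units beside -0.17 over all genes, and none passed the test. The 25C array is in the 3-array set and both 37C arrays are in the 4-array set, so temperature and array set cannot be told apart among the wild type arrays. In limma's fit 0 genes (0%) were called, and the lowest adjusted p among the 35 was 0.449. At an unadjusted p under 0.05 limma found 4 of the 35, all lower at 37C (RPT5, RPT2, PRE3 and RPN3), against 10.2% of all genes. The difference was above 0 for 5 of the 35, against 39.9%. Against the single 25C array, both 37C values were lower for 29 of the 35 (50.1% of all genes) and higher for 3 (31.1%).

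By role, 12 of 14 core genes were lower at 37C (median -0.77) and 17 of 19 cap genes (median -0.84), among them 9 of 9 lid genes. The difference was -1.76 log2 units for RPT5, -1.08 for RPT2 and -1.39 for PRE3, each with an adjusted p of 0.449 in limma. Of the genes above background, RPN7 was 1.51-fold lower at 37C (adjusted p 0.503 in limma), RPN8 at least 1.18-fold lower (adjusted p 0.449 in limma) and UMP1 1.28-fold higher (adjusted p 0.698 in limma). The bound for RPN8 sets its 25C value against the background of the 37C arrays.

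With the array set as a term, which takes the set from the mutant pairs, 13 of the 35 were above 0, against 43.7% of all genes. The median was then -0.16 over the 35, 0.11 over the core and -0.38 over the cap, and 4 genes were called (0.0734%), none among the 35. Within the 3-array set the 25C wild type stands beside mutants at 37C. There scc2-4 replicate 1 was above it for 9 of the 35 genes, against 37.9% of all genes, with 17 of 19 cap genes below and 7 of 14 core genes above. The sth1-3 replicate 1 array was above it for 17 of the 35, against 46.9%, with 12 of 19 cap genes below and 9 of 14 core genes above. These single arrays differ in strain and temperature together and have no test.

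Other genes of the pathway were read from 3 lists. Of 11 assembly chaperones and activators, 25 genes of ubiquitin conjugation, delivery and recycling and 6 regulators of RPN4, none was called in any of the 4 comparisons. Their medians were 0.11, -0.04 and -0.22 log2 units in scc2-4 against wild type at 37C, and 0.31, 0.04 and -0.18 in sth1-3. They were 0.17, -0.03 and -0.19 in sth1-3 against scc2-4, and -0.37, -0.06 and 0.39 in wild type at 37C against 25C. Over all genes the medians of the 4 comparisons were -0.005, 0.03, 0.02 and -0.17 in that order. With the array set as a term, the list medians in scc2-4 against wild type were -0.05, 0.09 and -0.13. In sth1-3 against wild type they were 0.15, 0.01 and 0.10, and for 37C against 25C -0.08, -0.05 and -0.28. Several of these differ in sign from the medians without the term. TMA17, which encodes an assembly chaperone of the base, was 10.78 in wild type at 25C, 9.94 and 9.92 in wild type at 37C, 10.45 and 9.83 in scc2-4, and 10.69 and 9.71 in sth1-3. It was above background on the 3-array set alone, like most of the core in direction. The ubiquitin-conjugating enzyme gene UBC4 was 10.66 in wild type at 25C, 9.73 and 9.92 in wild type at 37C, 10.49 and 10.06 in scc2-4, and 10.97 and 10.36 in sth1-3. Both sth1-3 values were above both wild type 37C values, at least 1.56-fold higher with an adjusted p of 0.824 in limma. UBC4 was also higher on every array of the 3-array set than on any of the 4-array set. Its difference was 0.84 log2 units without the set term and 0.58 with it. HSF1, the heat shock factor gene, ran the other way, with 9.99 in wild type at 25C, 11.13 and 10.71 in wild type at 37C, 9.48 and 10.79 in scc2-4, and 9.30 and 10.56 in sth1-3. Its 4 high values were those of the 4-array set.

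Nothing in the labels ties the replicates to separate cultures. The p-values then reflect only how far these arrays scatter, and that scatter may be technical. Without the set term it also holds the difference between array sets, since the replicates of each mutant lie in different sets. The median SD of the core genes was 0.19 in wild type at 37C, 0.56 in scc2-4 and 0.45 in sth1-3. A gene that did not pass the test is thus not shown to be unchanged. In RNA from whole cultures, fewer expressing cells and less RNA per cell cannot be told apart. The part that array set played in each difference was measured only through the fits and single arrays given above, and what the sets stand for was not tested.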

How the data were processed

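The authors deposited 1 log2 intensity for each probe set on each array; RMA and the affy package are named in the submitters' processing notes, without versions. Whether the 7 arrays were normalized together is not given in the sources used here. Scanner files were not used here. The platform annotation gave 1 symbol to 7244 of the 10928 probe sets and several to 1, and left 3683 unnamed here; of the named, 5498 were for S. cerevisiae and 1746 for S. pombe. Symbols were updated through the R64 reference (12 changed), and the brightest probe set was kept for each of the 47 genes with several, which left 5449 genes. A fold is "at least" where 1 group was not above background on any array, computed against the higher of background and signal on each array, and is not given where neither group was above it.

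Sample titles gave the groups. For wild type at 25C the growth text repeats the shift to 37C, so that its title, source name and description were followed instead. Group means were fitted over all 7 arrays in R 4.3.3 with limma 3.58.1 (lmFit, then eBayes; 3 residual degrees of freedom), two-sided, with Benjamini-Hochberg adjustment over 5449 genes and a threshold of 0.05. Precision is limited by the number of arrays. Values on every array are given for UMP1, RPN4, members above background on 2 or more arrays and the 3 members with the smallest p in each comparison; PRE2 and PRE5 were added after their values were seen. Of the other lists, TMA17, UBC4 and HSF1, each among the 3 brightest of its list, and UBI4 and UBC6 are described, chosen after values were seen. The members and lists were chosen with earlier results of these data known. Alternatives were a replicate block, an array set term, the 4-array set alone, eBayes with a trend, a filter on dim genes, 2 normalizations, the mean of probe sets and leaving out each replicate. The fit was also run on simulated data in which every gene had the same spread and the arrays were not split into sets. These data differ in both respects, so that run does not show how the fit performs here.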

Additional observations from a re-analysis of the deposited data

How the results depend on the processing

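No proteasome gene was called under any alternative that was run, where the lowest limma adjusted p of a named member was 0.173. The number of genes called, 0 in each comparison, became 7 (scc2-4 against wild type), 10 (sth1-3 against wild type) and 4 (wild type 37C against 25C) with the array set term. In the 4-array set alone it became 6, 13 and, for sth1-3 against scc2-4, 1. Those fits give nearly all genes 1 common spread (105 prior degrees of freedom with the term, infinite in the 4-array set), so their p-values are too small for variable genes. Leaving out 1 replicate gave 0 to 1 calls for scc2-4 against wild type (1 without scc2-4 replicate 2) and for 37C against 25C (1 without either scc2-4 array). With the replicate block 1 gene was called for each mutant against wild type. The replicate numbers did not pair wild type arrays with those of scc2-4 (deviations correlated at -0.20) or sth1-3 (-0.36). Between the mutants, whose same-numbered arrays share an array set, the correlation was 0.55.

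For 37C against 25C, the median of the 35 was -0.66 with the block, -0.16 with the set term, -0.60 over the 3 members that pass the filter on dim genes, and -0.61 with quantile normalization and with median centring. The core median was -0.56 with the block, 0.11 with the set term, -0.61 with quantile normalization and -0.59 with centring; no core gene passes the filter. The cap median was -0.38 with the set term. Leaving out 1 replicate moved the medians of the 35, core and cap over -0.041 to 0.54, -0.044 to 0.81 and -0.11 to 0.28 (scc2-4 against wild type), 0.010 to 0.61, 0.026 to 0.62 and 0.010 to 0.63 (sth1-3 against wild type), and -0.34 to 0.29, -0.48 to 0.36 and -0.21 to 0.29 (sth1-3 against scc2-4). The 4-array set cannot give 37C against 25C.

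Of 369 alternative values of named members, 22 changed sign. RPN8 in scc2-4 against wild type became -0.26 with the set term and -0.0056 in the 4-array set. In sth1-3 against wild type, RPN4 became 0.063 and 0.32 in the same fits, and RPN8 -0.032 in the 4-array set. In sth1-3 against scc2-4, the 4-array set gave 0.074 for RPN4, -0.17 for UMP1, -0.027 for RPN8 and 0.18 for RPT3, and UMP1 became -0.021 with quantile normalization and -0.0065 with centring. Leaving out 1 replicate turned RPN4 (-0.094 to 0.46) and RPN8 (-0.0056 to 0.59) in scc2-4 against wild type, and RPN4 (-0.85 to 0.32), RPN7 (-0.0026 to 0.43) and RPN8 (-0.032 to 1.60) in sth1-3 against wild type. It turned RPN4 (-1.03 to 0.14), UMP1 (-0.18 to 0.23), RPN7 (-0.14 to 0.010), RPN8 (-0.33 to 1.31) and PUP3 (-1.22 to 0.047) between the mutants. The cause of these changes was not tested.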

Other observations

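These genes of the ubiquitin pathway were chosen after their values were seen. UBI4, the stress-induced polyubiquitin gene, measured 9.63 in wild type at 25C, 10.00 in scc2-4 replicate 1 and 9.32 in sth1-3 replicate 1. It measured 7.68 and 7.68 in wild type at 37C, 7.93 in scc2-4 replicate 2 and 8.13 in sth1-3 replicate 2. It was thus high on the 3-array set, like most core genes, and the only array on which it was above background was scc2-4 replicate 1. UBC6, which encodes a ubiquitin-conjugating enzyme of the endoplasmic reticulum, measured 9.37 in wild type at 25C, 9.20 in scc2-4 replicate 1 and 7.89 in sth1-3 replicate 1. It measured 10.25 and 10.18 in wild type at 37C, 10.32 in scc2-4 replicate 2 and 9.88 in sth1-3 replicate 2, and so was high on the 4-array set.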
